A study of Mus musculus with 28 samples.

Results

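Sox5, Sox6, Sox9 and Acan are the 4 genes described here, taken out of 22225 mouse protein-coding genes as regulators and product of the cartilage program, and each was read over its gene body with 200 kb on each side (mm9). The cells were IDG-SW3, a conditionally immortalized mouse line with a Dmp1-GFP transgene. It was expanded on collagen with interferon gamma at 33 °C, as osteoblast-like cells, and then moved to 37 °C in osteogenic medium (ascorbic acid and beta-glycerol phosphate, no interferon gamma), where it takes on osteocyte character. VDR, the vitamin D receptor, and RXR, the retinoid X receptor that pairs with it, were mapped by chromatin immunoprecipitation with sequencing at day 35. Cells had received 100 nM 1,25(OH)2D3 (the active vitamin D hormone, here 1,25D3) or vehicle for 3 h, with 2 biological replicates per arm. The 9 histone marks were mapped at day 35 and at day 3 of maturation, with 1 library per mark and day, and their labels name no hormone or vehicle. All groups come from 1 line, and day and time since the shift of temperature and medium cannot be told apart.

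Sox9 is the transcription factor that commits mesenchymal cells to the cartilage lineage. Sox5 and Sox6 are close relatives that lack an activation domain of their own and bind beside Sox9 at cartilage genes, and Acan, which encodes the proteoglycan aggrecan, is among the genes that the trio switches on. Osteoblasts and chondrocytes share a progenitor, and in osteoblasts this program is normally low. Sox9 is known for enhancers that lie far from the gene in a long stretch without other genes. VDR with RXR typically binds a direct repeat of a hexamer with 3 bases between its copies, called DR3.

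The 4 loci differ in build. Sox5 (chr6:143776945-144730497, minus strand) has a body of 953.6 kb with 14 annotated transcripts and no other coding gene in its window. Sox6 (chr7:122614858-123182258, minus strand) has a body of 567.4 kb and shares its window with 4 coding genes, 1110004F10Rik, 1110006G14Rik, Gm4353 and Plekha7. Sox9 (chr11:112643538-112649074, plus strand) is 5.54 kb long and alone in its window. Acan (chr7:86198369-86259985, plus strand) is 61.6 kb long and shares its window with Abhd2, Aen, Hapln3, Isg20 and Mfge8. The windows add up to 3.19 Mb.

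The lists held 291 to 10333 factor peaks and 9360 to 100123 histone regions, and the depth of the libraries is unknown. H3K4me3, the mark of active promoters, lay within 2 kb of a start site of 3 of 6 osteocyte markers at both days (Dmp1, Sost and Pdpn), with none at Phex, Mepe or Fgf23. At Dmp1 it covered 100% around start sites on both days, and whether the Dmp1-GFP transgene adds to this was not tested. H3K4me3 lay at 6 of 7 osteoblast markers at day 35 and 5 of 7 at day 3. On both days it lay at 1 of 5 adipocyte markers and at 0 of 5 haematopoietic markers. Of 19 cartilage matrix genes, 2 had H3K4me3 at a start site on both days, Col11a1 and Comp. Of all coding genes, 42.7% had it at day 35 and 48% at day 3.

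VDR was called at Sox9 and Sox5 with the hormone and at none of the 4 genes with vehicle. The 4 windows held 3 and 2 VDR peaks in the 1,25D3 libraries and 0 and 0 in the vehicle libraries. The Sox5 window gave 2 and 1 of these and the Sox9 window 1 and 1, and Sox6 and Acan had none. The mean was 2.5 ± 0.707 peaks with 1,25D3 and 0 ± 0 with vehicle (SD, n = 2 each), a difference of 2.5. The arms did not overlap, with p = 0.333 in an exact permutation test (two-sided), the smallest p that 2 libraries against 2 allow. Sites called in both 1,25D3 replicates numbered 2, 1 at Sox5 and 1 at Sox9, and both were 1,25D3-only, meaning that they overlapped no peak of either vehicle library.

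That makes 2 of 4 genes with a VDR site within 200 kb, where 28.6% of all coding genes had one, and 2 of 4 with a 1,25D3-only site, where 18.2% of all genes had one. Among the 528 coding genes with a body of 300 kb or more, such as Sox5 and Sox6, 22% had a VDR site with 1,25D3. Under vehicle, 12.4% of all coding genes had a VDR site in both libraries. Per Mb, the 4 windows held 0.627 VDR sites with 1,25D3 and the genome 0.459. With the VDR lists limited by score to the length of the shortest one, no VDR peak was left in any of the 4 windows, in either arm.

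The DNA under both VDR sites is printed here because each holds a match to the hormone receptor element close to its centre. The sequences are the 200 bases around the site centre on the plus strand of mm9, with the matched hexamers in capitals. The Sox9 upstream site spans chr11:112598349-112598548 and the Sox5 intron site chr6:143995295-143995494.
Sox9 upstream VDR site: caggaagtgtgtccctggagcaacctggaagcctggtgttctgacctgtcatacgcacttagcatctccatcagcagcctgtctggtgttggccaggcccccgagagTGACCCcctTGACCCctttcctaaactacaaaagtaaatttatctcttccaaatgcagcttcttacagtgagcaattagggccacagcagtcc
Sox5 intron VDR site: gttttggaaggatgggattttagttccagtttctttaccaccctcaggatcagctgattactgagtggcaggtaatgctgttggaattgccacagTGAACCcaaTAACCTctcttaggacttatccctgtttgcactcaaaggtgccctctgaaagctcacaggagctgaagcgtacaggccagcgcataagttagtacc
The search used DR3, a direct repeat with 3 bases between 2 hexamers of the AGGTCA family (A or G, then G, then G or T, then T, then C or G, then A), on both strands. At the Sox9 site the match was exact, on the minus strand and 14 bases from the centre. At the Sox5 site it had 1 mismatch, on the minus strand and 2 bases from the centre. An exact DR3 was present in 12.2% of the 1218 VDR sites called in both 1,25D3 replicates and in 15.6% of the 893 1,25D3-only sites. With up to 1 mismatch the shares were 40.1% and 51.5%. Of the 14 loci with a peak of either factor in the 4 windows, 2 held an exact DR3, this Sox9 site and an Acan locus called in 1 RXR library, and 4 held one with up to 1 mismatch.

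The Sox9 site (chr11:112598291-112598607) lay 45.1 kb upstream of the Sox9 start, in the intergenic stretch before the gene. Its VDR scores were 7 and 7.1 with 1,25D3, with no peak under vehicle. These are low scores within their lists, at rank 1290 of 1618 and 1211 of 1333. The score is the authors' own, and its scaling is not stated. No RXR peak of any of the 4 lists overlapped this site, a state it shared with 143 of the 893 1,25D3-only VDR sites (16%).

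Chromatin at the Sox9 site was nearly bare. At day 35 a 1.24 kb region of H3K4me1, the mark of enhancers, covered it and no other mark did, and at day 3 none of the 9 marks did. Of the 1,25D3-only sites, 73 of 893 (8.17%) had no region of any mark at day 3, and 16 (1.79%) shared the full pattern of H3K4me1 alone at day 35 after no mark at day 3. The nearest H4K5Ac region was 3.35 kb away at day 35 and 3.45 kb away at day 3, and the nearest H3K27Ac region 3.81 kb and 3.77 kb. A 2.04 kb H3K27Ac region listed at day 35 and not at day 3 stood closer to the gene, at -35.7 kb from its start.

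The Sox5 VDR site (chr6:143995233-143995557) lay in an intron, 735.1 kb from the 5′ end of the gene and 99.8 kb upstream of the nearest annotated Sox5 start. Its scores were 14.9 and 14.2 with 1,25D3, at rank 457 of 1618 and 516 of 1333, and it had no VDR peak under vehicle. It too had no RXR peak in any list. In contrast to the Sox9 site, its chromatin was marked on both days. H3K4me1, H3K4me2, H3K27Ac and H4K5Ac covered it at day 35, and at day 3 these 4 marks with H3K9Ac and H4K20me1. H3K27Ac formed a region of 5.17 kb there at day 35 and of 6.23 kb at day 3. A further VDR peak, called in 1,25D3 replicate 1 alone with a score of 8, lay 187.7 kb beyond the 3′ end of Sox5 on an RXR site.

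**Figure D1:**
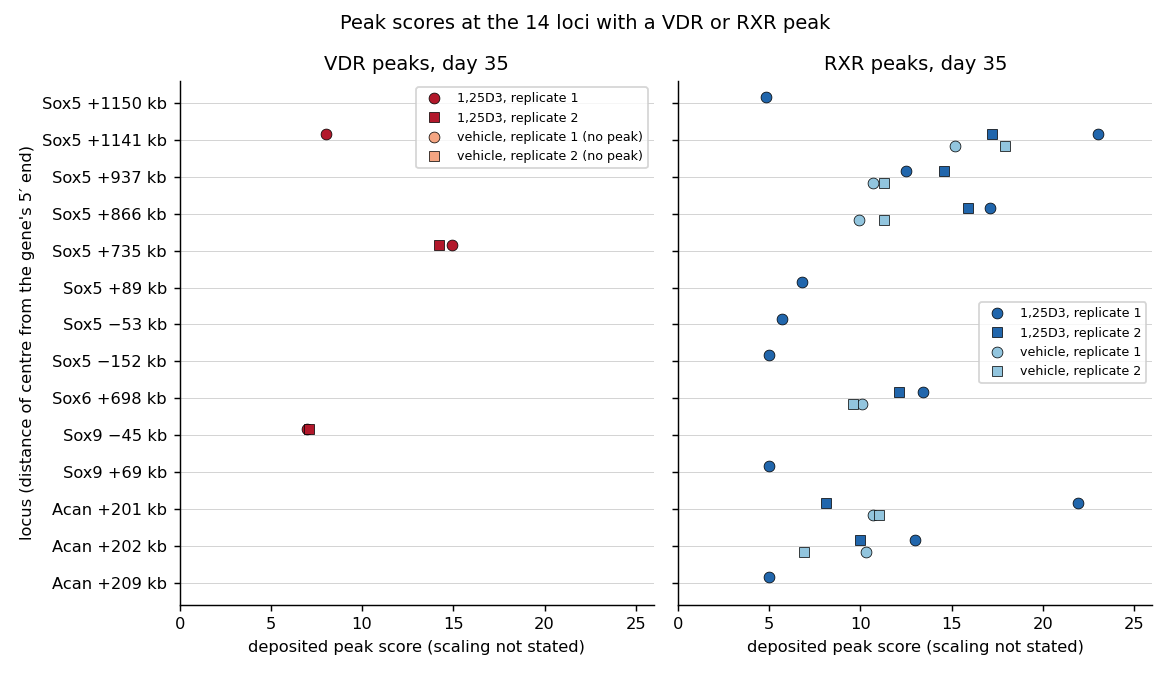
Deposited peak score (x axis, scaling not stated) of every VDR peak (left panel) and RXR peak (right panel) in the 4 windows, by locus (y axis, distance from the 5′ end of the gene); circles are replicate 1 and squares replicate 2, dark for 1,25D3 and light for vehicle. VDR points exist with 1,25D3 at 3 loci and with vehicle at none, and 6 RXR loci have points from all 4 libraries.

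RXR was called at Sox5, Sox6 and Acan with and without hormone, and at Sox9 in a single library. The 4 windows held 12 and 6 RXR peaks with 1,25D3 and 6 and 6 with vehicle, a mean of 9 ± 4.24 and 6 ± 0 (SD, n = 2 each). The ratio of geometric means was 1.41 (exact two-sided permutation test, p = 1), and the arms overlapped. By replicate the ratio was 2 in replicate 1 and 1 in replicate 2, so the excess came from 1 library. RXR 1,25D3 replicate 1 was the longest list, with 10333 peaks, and with all RXR lists limited by score to the length of the shortest the windows held 6 and 5 peaks with 1,25D3 and 6 and 6 with vehicle.

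Both 1,25D3 replicates called 6 RXR sites, 3 at Sox5, 1 at Sox6 and 2 at Acan, and the same 6 loci were called in both vehicle replicates. No site was 1,25D3-only. Thus 3 of 4 genes had an RXR site with 1,25D3, against 60.7% of all coding genes and 57% of those of 300 kb or more, and 3 of 4 had one with vehicle, against 45.1% of all. A 1,25D3-only RXR site lay near 24.3% of all coding genes and near none of the 4. The windows held 1.88 RXR sites per Mb with 1,25D3, and the genome 2.55.

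At Sox5 the 3 RXR sites lay in the 3′ part of the gene and beyond it. The distal one, 187.7 kb past the 3′ end (chr6:143589087-143589480), scored 23 and 17.2 with 1,25D3 and 15.2 and 17.9 with vehicle, and the arms overlapped. A second, at chr6:143792945-143793307 in an exon of a retained-intron transcript (Sox5-009), scored 12.5 and 14.6 with 1,25D3 and 10.7 and 11.3 with vehicle. The third, intronic at chr6:143864793-143865180, scored 17.1 and 15.9 with 1,25D3 and 9.9 and 11.3 with vehicle. At the last 2 both 1,25D3 libraries scored above both vehicle libraries.

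The Sox6 site lay 131.1 kb beyond the 3′ end of the gene (chr7:122483603-122483960) and scored 13.4 and 12.1 with 1,25D3 and 10.1 and 9.6 with vehicle, without overlap of the arms. No RXR site called in both replicates lay inside the 567.4 kb of the Sox6 body. The 2 sites in the Acan window stood side by side, 139.3 kb and 140.4 kb past the 3′ end of Acan and 18.8 kb and 17.7 kb upstream of the start of Abhd2, a lipase gene. The first (chr7:86399149-86399499) scored 21.9 and 8.1 with 1,25D3 and 10.7 and 11 with vehicle, and the second (chr7:86400212-86400603) 13 and 10 with 1,25D3 and 10.3 and 6.9 with vehicle. The arms overlapped at both. At 3 of the 6 RXR sites, then, both 1,25D3 scores lay above both vehicle scores, as they did at 35% of the 3438 RXR sites of the genome called in all 4 lists, and the lists are not known to share a score scale.

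The other 6 loci were called in RXR 1,25D3 replicate 1 alone, 4 at Sox5, 1 at Sox9 and 1 at Acan, with scores of 4.8 to 6.8 and ranks of 6916 to 10036 in a list of 10333. The Sox9 one lay 63.1 kb beyond the 3′ end of Sox9, scored 5, and was the one RXR peak in that window. In all, 14 loci of the 4 windows carried a peak of either factor, and 4 of them were inside a gene body, all in Sox5.

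The sequences of a pair of Sox5 RXR sites are printed because each holds a match to TGANTCA, the element of AP-1 factors such as Fos and Jun, which drive stress and growth responses. Capitals mark the match on the plus strand of mm9, and the ranges are chr6:143589184-143589383 for the distal site and chr6:143864887-143865086 for the intronic one.
Sox5 distal RXR site: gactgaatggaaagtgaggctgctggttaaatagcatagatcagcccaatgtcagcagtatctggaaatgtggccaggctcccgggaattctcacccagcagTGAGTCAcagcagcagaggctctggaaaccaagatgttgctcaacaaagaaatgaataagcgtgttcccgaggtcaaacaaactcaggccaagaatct
Sox5 intron RXR site: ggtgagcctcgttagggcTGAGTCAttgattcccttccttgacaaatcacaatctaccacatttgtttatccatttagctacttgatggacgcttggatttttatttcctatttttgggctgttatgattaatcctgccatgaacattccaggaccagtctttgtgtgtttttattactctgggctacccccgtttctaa
TGANTCA, searched on both strands, was found in the 200 bases at 3 of the 6 RXR sites, both of these and the second Acan site, and in 35.7% of the 6783 RXR sites of the genome. Neither DR3 nor DR1, the same repeat with 1 base between the hexamers, was found at any of the 6 with up to 1 mismatch. Across all RXR sites DR3 with up to 1 mismatch occurred in 11% and DR1 in 9.05%. The single hexamer AGGTCA, which is part of both repeats, was found at 2 of the 6 sites, and the Runx element TGTGGT at 2 of the 6, against 31.5% and 32.4% of all RXR sites.

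Most of the 14 loci stood in enhancer-type chromatin on both days. H3K4me1 covered 14 of them at day 35 and 13 at day 3, H3K27Ac 13 and 12, H4K5Ac 13 and 12, H3K4me2 11 and 9, and H3K9Ac 7 and 8. H3K4me3 and H3K9me3 covered none on either day. H4K20me1 and H3K36me3, found over transcribed gene bodies, covered 0 at day 35 and 3 each at day 3, and the H3K36me3 ones were all at Sox5. Over all RXR sites called in both 1,25D3 replicates, H3K4me1 covered 98.9% at day 35 and 97.7% at day 3, H3K27Ac 95% and 90.3%, H4K5Ac 96.5% and 92.6%, H3K4me2 87.6% and 74.6%, and H3K9Ac 74.9% and 76.4%. The shares were 27.6% and 50.4% for H4K20me1, 10.5% and 18.5% for H3K36me3, 7.84% and 11.6% for H3K4me3, and 0.28% and 1.96% for H3K9me3. Of the 14 loci, 6 are such RXR sites, and 6 others are peaks of 1 RXR library. Over all VDR sites called in both 1,25D3 replicates, H3K4me1 covered 93.2% at day 35 and 91.7% at day 3. The VDR shares were 87.4% and 80.9% for H3K27Ac, 27.4% and 38.8% for H4K20me1, and 10.5% and 15.4% for H3K36me3.

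Single loci differed in width between the days. The H3K27Ac region over the Sox6 site was 16.5 kb wide at day 35 and 6.11 kb at day 3. Over the intronic Sox5 RXR site it was 3.7 kb at day 35 and 11 kb at day 3. Over the distal Sox5 site it was 7.38 kb and 27.3 kb, and over the exonic one 3.02 kb and 13.2 kb. At Acan 1 region of 2.31 kb covered both sites at day 35, and at day 3 none covered the first and 0.641 kb the second. H3K27Ac was thus wider at day 35 over the Sox6 site and both Acan sites, and narrower over the 3 Sox5 sites.

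**Figure D2:**
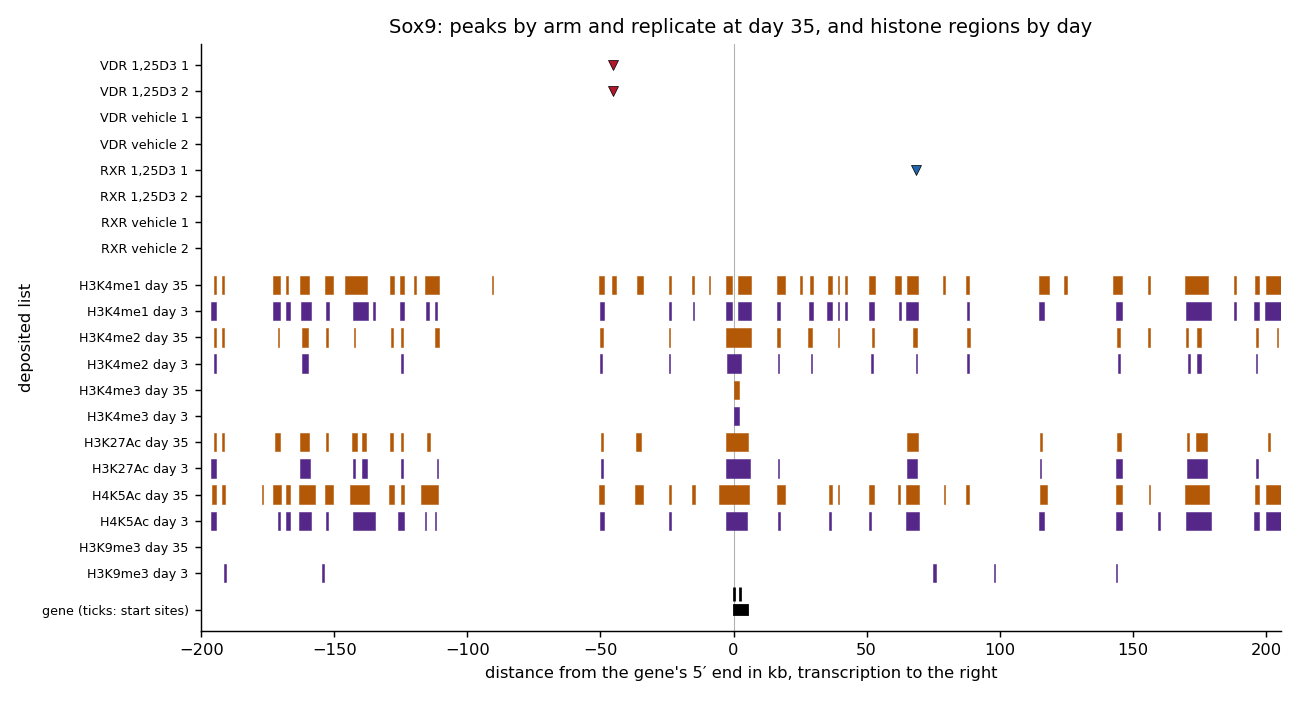
Map of the Sox9 window: triangles are VDR and RXR peaks of each library at day 35, bars are called histone regions at day 35 (brown) and day 3 (purple), and the x axis is the distance from the Sox9 start in kb. The VDR peaks sit 45.1 kb upstream in both 1,25D3 libraries, and the gene itself is marked on both days.

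Sox9 had promoter and transcription marks on both days, with more H3K4me2 and H4K5Ac at day 35 over the gene and its 5 kb flanks. H3K4me3 covered 46.9% of the 4 kb around its start at day 35 and 48.1% at day 3, and H3K27Ac, H3K9Ac and H4K5Ac covered all of it on both days. H3K36me3 covered 3.58 kb of the 5.54 kb body at day 35 and 4.05 kb at day 3, and H4K20me1 5.48 kb and 5.43 kb. Over the gene with 5 kb on each side, H3K4me2 covered 59.7% at day 35 and 35.3% at day 3 (24.40 points) and H4K5Ac 70.2% and 51.5% (18.78 points). Both are past the 10 points used as a call here, as were 9.17% of all coding genes for higher H3K4me2 and 13.4% for higher H4K5Ac. With 200 kb flanks the differences were 3.46 points for H3K4me2 and 6.27 for H4K5Ac, under the call. That window is 0.406 Mb for a 5.54 kb gene, so it dilutes a difference at the gene and cannot test these calls. Around start sites H3K4me2 differed by 24.70 points. H4K5Ac covered 100% there on both days, so it could not be higher at day 35. H3K27Ac covered 53.6% and 57.3%, a difference of -3.66 points. Each histone mark has 1 library per day, so day differences have no replicate check and no test.

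In the Sox9 window, most H3K27Ac regions listed at day 35 alone lay upstream of the gene. The window held 19 H3K27Ac regions at day 35, of which 7 overlapped none at day 3, and 14 at day 3, of which 3 overlapped none at day 35. The share of all H3K27Ac regions listed at 1 day alone is not given, so whether these counts are unusual cannot be told. Of the 7, 6 were upstream of the gene. The widest (chr11:112606863-112608903, 2.04 kb) was centred at -35.7 kb from the start. At day 35 H4K5Ac covered 100% of it, H3K4me1 74.4% and H3K9Ac 24.5%, and at day 3 no mark touched it. The widest region of day 3 alone was 0.999 kb long and 196.7 kb past the start, and H3K4me1 and H4K5Ac covered 100% of it on both days. The widest H3K27Ac region of either day lay on the gene itself, 8.33 kb at day 35 and 8.89 kb at day 3. In total, H3K27Ac covered 38.3 kb of the Sox9 window at day 35 and 36.9 kb at day 3, and H4K5Ac 86.1 kb and 60.7 kb.

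**Figure D3:**
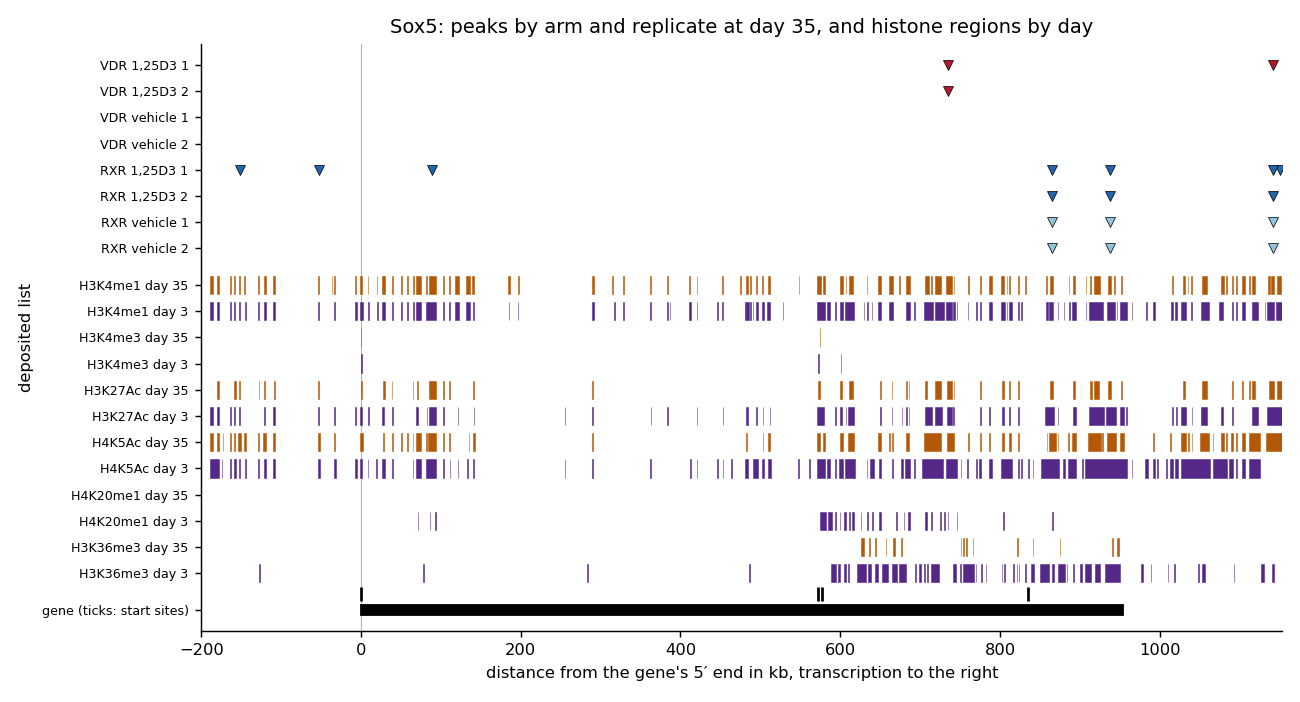
Map of the Sox5 window with the same symbols, drawn along the distance from the 5′ end of the gene in kb; ticks over the gene bar are start sites. At day 3 H3K36me3 and H4K20me1 bars lie mostly after the coding start cluster, where at day 35 H4K20me1 has no region and H3K36me3 has 15.

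Sox5 carried less chromatin of transcription at day 35 than at day 3. H3K36me3 covered 2% of the gene with 5 kb flanks at day 35 and 16.9% at day 3 (-14.90 points; 9.87% of all coding genes and 9.28% of genes of 300 kb or more were lower by over 10 points). Around start sites H3K36me3 covered 0% on both days, so no loss could show there. H4K20me1 covered no base of the gene at day 35 and 38 kb of the body at day 3. With 5 kb flanks the H4K20me1 difference was -3.95 points, which is under the call. A more negative one was found in 12.3% of all coding genes and 10.2% of the long ones. H4K5Ac covered 16.1% and 26.7% (-10.65 points; past the call in 6.66% of all coding genes and 3.79% of the long ones). H3K27Ac covered 7.26% and 14.1%, a difference of -6.83 points, which is under the call, and 1.89% of the long genes had a more negative one.

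H3K36me3 and H4K20me1 at Sox5 lay almost wholly after the inner coding starts. A cluster of 4 starts, coding ones among them, lies 572.4 kb into the annotated gene. In the 381.1 kb after it, H3K36me3 covered 19.2 kb at day 35 and 160.0 kb at day 3, and H4K20me1 0 kb and 35.7 kb. In the 572.4 kb before it, H3K36me3 covered 0 kb at day 35 and 2.82 kb at day 3, and H4K20me1 0 kb and 2.35 kb. H3K27Ac in the part after the cluster covered 51.1 kb at day 35 and 103.3 kb at day 3, and in the part before it 18.7 kb and 29.4 kb. H3K4me2 covered more at day 35, with 34.2 kb and 23.1 kb after the cluster and 20.3 kb and 10.4 kb before it. Across the genome it covered 1.49 times as many bases at day 35 as at day 3.

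Sox5 starts had less H3K4me3 coverage at day 35. Around the coding cluster H3K4me3 covered 5.93% of the 4 kb at day 35 and 38% at day 3, and H3K27Ac 49.6% and 83.6%. The H3K4me3 region there at day 3 (1.56 kb, score 286.3) overlapped none of day 35. The day 35 coverage came from another region (0.5 kb, score 10.6) that overlapped none of day 3. At the annotated 5′ end, which has no coding transcript, H3K4me3 covered 12.3% and 31.8%. H3K4me2 was alike on both days at these starts, at 78.8% and 79.6% around the cluster and 64% and 61.8% at the 5′ end. Over all annotated starts of a gene together, H3K4me3 was lower by over 10 points in 18.9% of all coding genes, and its genome total at day 35 was 0.736 of that at day 3. The 4 starts 834.9 kb into the gene, coding ones included, had none of 8 marks on either day, and H4K5Ac covered 12.4% there at day 3.

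H3K27Ac regions around Sox5 were also more numerous at day 3, while the whole lists held 67302 at day 35 and 67163 at day 3. The window held 46 at day 35, 5 of them absent at day 3, and 65 at day 3, 26 of them absent at day 35, and 16 of those 26 were intronic. Such counts of absent regions have no genome share beside them. The widest of each day lay beyond the 3′ end, where 13.8 kb (chr6:143570224-143583995) was listed at day 35 and 27.3 kb (chr6:143569166-143596437) at day 3. The day 3 region spanned the distal RXR site. The widest of 1 day alone were 1.64 kb at day 35, past the 3′ end, and 4.04 kb at day 3, at -187.1 kb from the 5′ end and nearest to Bcat1. At the start 577.5 kb into the gene H3K27Ac covered 0% at day 35 and 90.8% at day 3, and H4K20me1 0% and 100%.

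**Figure D4:**
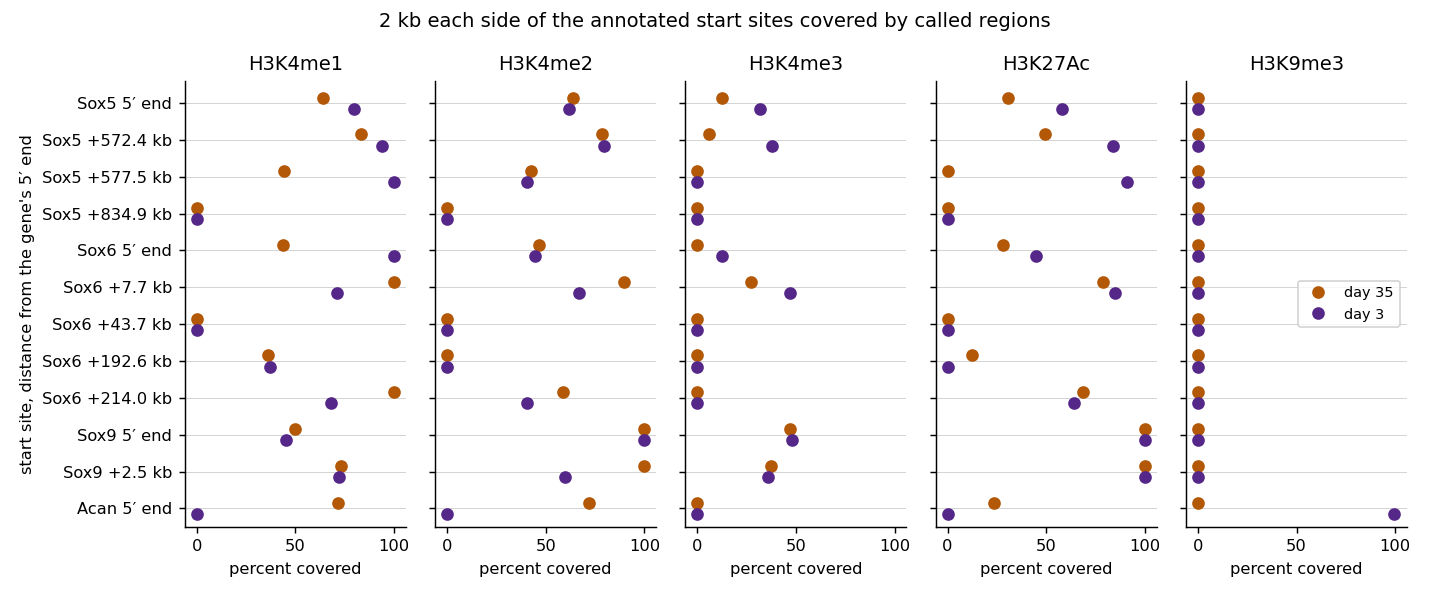
Percent (x axis) of the 2 kb on each side of every annotated start site (y axis) covered by regions of 5 marks (panels) at day 35 (brown) and day 3 (purple). Acan has H3K9me3 over 99.6% at day 3 and none at day 35, and Sox9 has H3K4me3 on both days. H3K4me3 at both marked Sox5 starts and at the first 2 Sox6 starts covers less or is absent at day 35.

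Sox6 had less H3K4me1 and H4K5Ac over the gene and its 5 kb flanks at day 35 than at day 3. H3K4me1 covered 19.8% of the gene with 5 kb flanks at day 35 and 32.3% at day 3 (-12.46 points, past the call in 9.94% of all coding genes and 5.11% of long ones). H4K5Ac covered 17.8% and 29.1% (-11.30 points). Both calls ended with 200 kb flanks, at -5.80 points for H3K4me1 and -1.59 for H4K5Ac, and around start sites, at 0.74 and -0.77. The body is 567.4 kb of the 0.967 Mb window, so the wider span dilutes a difference at the gene. H3K36me3 covered 6.93% and 3.81%, and H4K20me1 5% and 2.26%, both under 10 points and opposite in sign to Sox5. H3K27Ac covered 12.1% and 13.7%, a difference of -1.59 points.

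H3K4me3 at Sox6 lay mainly at the start 7.7 kb into the gene, where it covered 27.1% of the 4 kb at day 35 and 47.1% at day 3. That region is nearer to the start of 1110006G14Rik, so it cannot be assigned to Sox6 alone. At the 5′ end of Sox6, H3K4me3 covered 0% and 12.5%, and H3K4me1 44% and 100%. The start 214.0 kb into the gene had no H3K4me3 on either day, while H3K27Ac covered 68.5% and 64.1% of it. The Sox6 window held 54 H3K27Ac regions at day 35, 10 of them absent at day 3, and 55 at day 3, 9 of them absent at day 35. For these counts too the share over all regions is not given. Of those 9, 8 were in introns, the widest (6.29 kb) 120.9 kb into the gene, while the widest of day 35 alone (4.31 kb) was at -116.6 kb from the 5′ end and nearer to Plekha7. The widest of all was the 16.5 kb region over the RXR site at day 35, and 14.5 kb next to the start of 1110004F10Rik at day 3.

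At Acan several marks differed between the days around the start, and H4K5Ac away from it. At day 3 an H3K9me3 region of 4.76 kb (chr7:86196384-86201147) covered 99.6% of the 4 kb around the start, and at day 35 H3K9me3, the mark of silenced chromatin, covered none. H3K4me2 covered 72% at day 35 and 0% at day 3, H3K4me1 71.4% and 0%, H3K27Ac 23.4% and 0%, and H3K9Ac 12.5% and 0%. H4K5Ac covered none of the 4 kb on either day. Around their starts, 21.6% of all coding genes were higher by over 10 points for H3K4me2, 8.75% for H3K4me1, 12% for H3K27Ac and 9.37% for H3K9Ac. H3K4me3 was absent on both days, as were H3K36me3 and H4K20me1 over the whole body. Of all coding genes, 8.52% had H3K9me3 within 2 kb of a start at day 3 and none at day 35, and 0.742% had this together with H3K4me2 at day 35 and none at day 3. Over the gene with 5 kb flanks no mark passed 10 points. H3K9me3 covered 0% and 6.65%, H3K4me1 7.69% and 0%, H3K27Ac 4% and 0%, and H4K5Ac 4.44% and 0%. With only the higher-scoring 50% of each list, H3K4me1, H3K27Ac, H3K9Ac and H4K5Ac differed by 0.00 points over this span. H3K4me2 still differed by 6.17 points and H3K9me3 by -6.65.

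The Acan and Sox9 upstream sequences are printed because these 2 starts differed in their marks. Each is the 250 bases before the gene's 5′ end, on the strand of the gene (plus for both), in mm9, chr7:86198119-86198368 for Acan and chr11:112643288-112643537 for Sox9. Capitals mark CpG, the dinucleotide at which DNA is methylated.
Acan upstream: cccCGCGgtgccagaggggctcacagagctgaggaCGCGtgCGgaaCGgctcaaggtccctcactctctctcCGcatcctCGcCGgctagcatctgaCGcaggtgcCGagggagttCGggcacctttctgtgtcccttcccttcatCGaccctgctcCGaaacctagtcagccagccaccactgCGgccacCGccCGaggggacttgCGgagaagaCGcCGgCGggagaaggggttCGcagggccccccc
Sox9 upstream: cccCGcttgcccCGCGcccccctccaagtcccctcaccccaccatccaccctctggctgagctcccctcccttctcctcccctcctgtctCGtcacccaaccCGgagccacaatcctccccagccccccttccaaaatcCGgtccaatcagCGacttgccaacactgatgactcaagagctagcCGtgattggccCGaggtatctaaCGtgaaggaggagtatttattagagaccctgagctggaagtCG
Acan had 22 CpG and 68% G and C in this stretch, more CpG than 83% of all coding genes. Sox9 had 11 CpG and 60.8%, Sox5 8 and Sox6 9, near the median of 8.

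The Acan window also held regions nearer to its neighbours. H3K36me3 covered 36.2 kb of that window at day 35 and 31.1 kb at day 3, and none of it in Acan. The widest H3K27Ac region at day 35 (13.1 kb) was nearest to Isg20, and that at day 3 (11.1 kb) to Abhd2. Of 25 H3K27Ac regions at day 35, 8 were absent at day 3, 4 of them upstream of Acan and 2 in its introns. Of 18 at day 3, 2 were absent at day 35. Here too the share over all regions is not given. The widest of day 35 alone was 4.18 kb and centred at -113.0 kb from the Acan start, 26.2 kb from Isg20.

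H3K9me3 covered fewer bases at day 35 in each of the 4 windows. It covered 16.1 kb at day 35 and 42.2 kb at day 3 at Sox5, 0 kb and 12 kb at Sox6, 0 kb and 3.32 kb at Sox9, and 3.62 kb and 11 kb at Acan. The same direction held for 54.4% of all coding genes. The autosomes as a whole, which hold all 4 genes, went the other way, with 50.9 Mb under this mark at day 35 against 46.1 Mb at day 3.

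**Figure D5:**
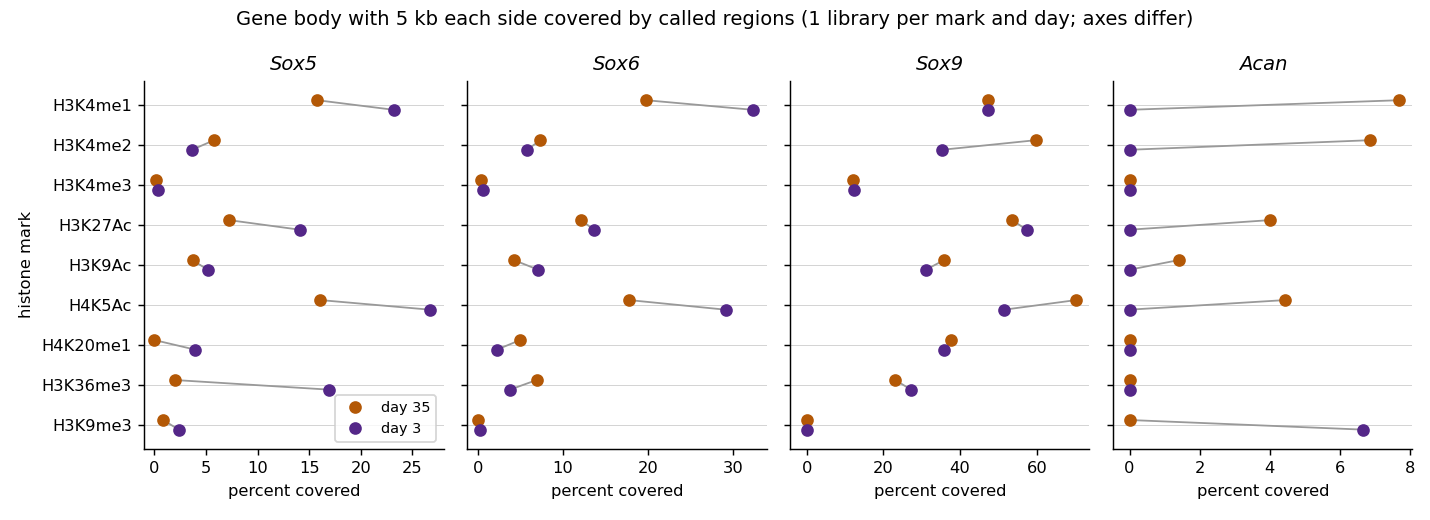
Share of each gene and its 5 kb flanks in percent (x axis, scaled per panel) covered by regions of 9 marks at day 35 (brown) and day 3 (purple) for each gene, 1 library per point. The differences past 10 points are H3K4me2 and H4K5Ac at Sox9 (higher at day 35), H4K5Ac and H3K36me3 at Sox5, and H3K4me1 and H4K5Ac at Sox6 (lower at day 35).

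Of the 36 pairs of gene and mark, 2 were higher at day 35 by over 10 points, both at Sox9, and 4 were lower, 2 each at Sox5 and Sox6. Only the Sox5 pairs passed with 200 kb flanks too. The Sox5 body is 953.6 kb of a 1.35 Mb window. At Sox6 the body is 567.4 kb of 0.967 Mb, and at Sox9 5.54 kb of 0.406 Mb. The flanks thus dilute a difference at the gene more for Sox6 and Sox9, so passing does not make the Sox5 calls firmer. Over all coding genes and marks, 9.82% of pairs were higher and 5.44% lower. H4K5Ac was the mark with most calls, higher at Sox9 and lower at Sox5 and Sox6. There was no call at any of the 4 genes for H3K27Ac, H3K9Ac, H3K4me3, H4K20me1 or H3K9me3. Among all coding genes, H3K27Ac was higher in 17.8% and lower in 5.82%, H3K9Ac in 7.1% and 3.65%, H3K4me3 in 0.157% and 2.15%, H4K20me1 in 17.9% and 6.15%, and H3K9me3 in 4.2% and 4.17%. For the marks with calls in 1 direction, the other direction held 0.558% for H3K4me2 (lower), 8.05% for H3K4me1 (higher) and 10.7% for H3K36me3 (higher).

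Sox5 and Sox6 were the most alike of the 4 over the 18 coverage values (9 marks, 2 days), with a mean absolute difference of 3.16 points. Sox5 and Acan differed by 7.09 points, Sox6 and Acan by 8.36, and Sox9 differed from the other 3 by 26.05 to 34.41. The coding gene nearest to Sox5 was Lama2, a laminin chain gene with a body of 635.7 kb, at 1.46 points, followed by Gtdc1 at 1.69 and 3110082D06Rik at 1.72. Nearest to Sox6 were Rnls at 1.63, 4930404A10Rik at 2.04 and Mnd1 at 2.07. Nearest to Sox9 were Klf2, a short transcription factor gene, at 4.58, Fbxo24 at 6.05 and Mmp11, a matrix metalloproteinase, at 6.37. Among those nearest to Acan were Mfsd6l at 0.81 and Epha8, an ephrin receptor, at 0.84. The median difference to all coding genes was 10.07 points for Sox5, 10.50 for Sox6, 28.07 for Sox9 and 12.61 for Acan.

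The wider cartilage program, read in 42 other genes, held both higher and lower members at day 35. H3K27Ac was higher at day 35 by over 10 points with H3K9Ac and H4K5Ac also higher at 15 of 42, where 11.5% of all coding genes were, and lower in the same sense at 6 of 42, where 4.11% were. The median H3K27Ac difference was 5.50 points in the list and 0.00 over all coding genes. Of 19 matrix genes 4 were higher and 2 lower, of 7 signals and receptors 2 and 1, of 10 transcription factors 7 and 2, and of 6 enzymes of matrix synthesis and breakdown 2 and 1.

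Among the matrix genes, H3K27Ac covered 87.6% of Col11a1 at day 35 and 18.2% at day 3, 29.2% and 1.89% of Col11a2, 47.8% and 19.3% of Matn4, and 65.6% and 17.1% of Prg4, which encodes lubricin. Col2a1, the main cartilage collagen, had 1.28% and 5.86%, and H3K9me3 covered 15.9% and 38.6% of it. Lower were Col9a3, at 8.44% and 20.5%, and Matn1, at 0% and 12.9%.

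Among signals, Pth1r, the parathyroid hormone receptor, had 100% and 47.5% and Ptch1, the hedgehog receptor, 58.3% and 29.6%, while Gdf5, the joint growth factor, had 14.1% and 77.8%. The 7 higher transcription factors were Trps1, Runx2, Runx3, Mef2c, Foxa3, Sox8 and Arid5b, for example Runx3 with 77.3% and 31.9%. Foxa2 had 0% at day 35 and 20.1% at day 3, and Nkx3-2, a repressor of chondrocyte maturation, 17% and 27.4%. Of the enzymes, the chondroitin sulfotransferase gene Chst11 (55.7% and 25%) and the collagenase gene Mmp13 (53.6% and 21.3%) were higher, and Adamts5, which cuts aggrecan, was lower (34.3% and 74.8%). Runx2, Pth1r and Mmp13 are also bone genes, and Runx2 stands in the osteoblast markers as well. By the same acetylation rule 3 of 7 osteoblast markers were higher, 1 of 6 osteocyte markers, 2 of 5 adipocyte markers (with 1 lower) and 1 of 5 haematopoietic markers. Their part in the cartilage counts was not tested.

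VDR sites with 1,25D3 lay within 50 kb of 7 of the 42 genes, where 11.6% of all coding genes had one: Col11a2, Matn4, Chad, Bmpr1b, Arid5b, Mmp13 and Adamts4. RXR sites lay within 50 kb of 18 of 42, where 31.9% of all had one. Sox5 and Sox9, with a VDR site at that distance too, stand beside these 7.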

How the data were processed

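Of 28 libraries, 26 had a region list that was used, and the 2 inputs have none used here. Bowtie, HOMER and mm9 are named, per the submitters' processing notes, without roles, and their versions and settings, like the use of the inputs, are not stated. Each list holds 1 library. The score of a region is the authors' own deposited number, with no stated scale, and was used to rank or limit regions within a list and to set the values of 1 site side by side. File names of replicate 2 factor lists and of all histone lists hold the tag BIOO and those of replicate 1 factor lists do not; each arm has 1 of each, and values per replicate are given.

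Genes were the 22225 protein-coding ones of GENCODE M1 on NCBIM37, the build of mm9 (0 regions beyond a chromosome end); coordinates are 1-based. Peaks of both replicates sharing 1 bp or more were merged into a site, placed by its centre. Coverage was the percent of a gene body with 5 kb each side under called regions, and a difference of over 10 points was a call. Peak numbers were compared by exact permutation of libraries. For VDR the numbers themselves were compared, in place of the planned log2 numbers, since the vehicle counts were 0. The 4 genes, the lists, the naming rule and the tests were chosen with earlier results of these data known. That rule took the 4 genes, all VDR sites and up to 5 RXR sites per gene, the widest H3K27Ac region of each day and of 1 day alone, the 3 coding genes with the most similar coverage, and list genes with a VDR site within 50 kb or an acetylation call; 1 gene it names is not reported here. Col2a1 and the RXR loci of 1 list were named after their values were seen. The cartilage list was looked up by symbol, Cnmd and Snorc as Lect1 and 3110079O15Rik. Motifs, start clusters (starts within 1000 bp) and the 2 parts of Sox5 were added after the data had been seen. Scripts ran in Python 3.11.15 with NumPy 2.4.6 and matplotlib 3.10.9 and were tested on simulated intervals.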

Additional observations from a re-analysis of the deposited data

How the results depend on the processing

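An overlap of 50% of the shorter peak left all 4 site counts as reported. With the higher-scoring 50% of each list there was 1 VDR site (1,25D3-only, at Sox5) and the RXR peak ratio was 1. Leaving out one replicate gave 6 to 12 RXR sites, 2 to 3 VDR sites, 0 to 6 1,25D3-only RXR sites and 2 to 3 1,25D3-only VDR sites, and an RXR peak ratio of 1 to 2 and a VDR difference of 2 to 3; the 6 extra RXR sites were peaks of 1,25D3 replicate 1 alone. With 50 kb flanks there were 2 RXR sites, and with 500 kb flanks 12 RXR sites, 5 VDR sites, 2 1,25D3-only RXR sites and 4 1,25D3-only VDR sites. With lists limited to the shortest, the RXR ratio was 0.913, below 1, and the VDR difference 0; fewer peaks were then counted. Treating equal replicate numbers as a block gave an RXR ratio of 1.41 (exact sign-flip test, p = 1) and a VDR difference of 2.5 (p = 0.5, the smallest 2 pairs allow); same-numbered RXR libraries had a score deviation correlation of 0.18 over 3438 sites, and the labels do not say that a number marks a shared culture.

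With 200 kb flanks 1 pair of gene and mark was higher at day 35, Acan H4K5Ac (11.53 points), which was not a call before. The 2 lower ones were both at Sox5. The Sox9 and Sox6 differences fell under 10 points. Flanks make up a larger part of those windows, so this does not test their calls. Around start sites 6 were higher and 6 lower. Over all coding genes the start-site shares were 21.6% for higher H3K4me2, 8.75% for H3K4me1, 12% for H3K27Ac and 9.37% for H3K9Ac. For lower H3K4me3 it was 18.9%. Over the gene with 5 kb flanks these shares were 9.17%, 8.05%, 17.8%, 7.1% and 2.15%. Shares over all pairs are not given for start sites or 200 kb flanks, so these counts cannot be set against the main ones. Sox6 H3K4me1, lower over the gene, was 0.74 points higher at start sites; the cause was not tested. The higher-scoring 50% of the regions left 2 pairs higher and 4 lower. Merging regions closer than 1 kb changed none of the coverage differences, so it could not test these calls. Without read depth, counts of regions limit the precision, and with 1 library per mark and day a day difference cannot be told apart from a difference between libraries.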
